A study of Mus musculus with 8 samples.

Results

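The 10 genes described here are 9 heat shock chaperones and the co-chaperone Bag3, measured in mouse liver. They were taken from the deposited expression table by exact match of the gene symbol to Hspa1a, Hspa1b, Hspa8, Hsph1, Bag3, Dnajb1, Hsp90aa1, Hspb1, Hspd1 and Hspe1. All 10 were found among the 21358 genes of the table, and 9 passed the filter on low values, which kept 9867 genes with an FPKM (fragments per kilobase of gene, scaled to the library's counted total) of 1 or more in 4 or more of the 8 libraries. Hspa1a did not pass it.

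The mice, which the series calls a model of metabolic dysfunction, had been fasted every second day for 22 weeks when liver RNA was taken. In the feeding glucose group (FG, libraries 93, 94, 95 and 96) glucose was taken in the fed state, and in the starvation glucose group (SG, libraries 101, 103, 104 and 105) it was taken in the fasted state. Both groups went through the same regimen, and no group without glucose or without fasting was analysed here. The labels name no strain, sex, age, diet, batch, hour of collection or interval since food, and nothing in them says that each library is a different animal. The p-values therefore cover the spread among libraries, which may be technical. The libraries held 36545128 to 41977438 counted fragments. In bulk liver RNA, fewer cells of a type and less RNA per cell cannot be told apart.

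Molecular chaperones bind proteins that are not fully folded and either help them fold, hold them soluble or pass them on for degradation. HSP70 proteins work in cycles driven by ATP, in which a J-domain protein delivers the client and starts hydrolysis and a nucleotide exchange factor releases it. HSP90 acts later on signalling proteins and receptors, small heat shock proteins hold unfolded clients without ATP, and HSP60 with its lid HSP10 folds proteins inside mitochondria. Many of these genes are induced together by the transcription factor HSF1, which binds inverted repeats of a GAA unit, the heat shock element. In liver, chaperone expression is also known to follow body temperature, feeding and the time of day.

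Promoter sequences are shown because a shared heat shock element is what classically ties these genes together. RefSeq promoter windows on GRCm38.p6, from 250 bases before to 50 bases after an annotated start, were found for 8 of the 10 members in 11 windows. Hspa8 and Hsp90aa1 were not matched in that table. In the sequences, capitals mark matches to GAANNTTC, a head-to-head pair of GAA units that reads the same on both strands, or, on either strand, to a longer motif of 3 units, GAANNTTC with 2 free bases and another GAA after it, which contains the shorter one. The 250 bases before the start of Hspa1a (chr17:34972157-34972406, minus strand), Hspa1b (chr17:34959239-34959488, minus strand) and Hspb1 (chr5:135887669-135887918, plus strand) read, from 5′ to 3′:
Hspa1a: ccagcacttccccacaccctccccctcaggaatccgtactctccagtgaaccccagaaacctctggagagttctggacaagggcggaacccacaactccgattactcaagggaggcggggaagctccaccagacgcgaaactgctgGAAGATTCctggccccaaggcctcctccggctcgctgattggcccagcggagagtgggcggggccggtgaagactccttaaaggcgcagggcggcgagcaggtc
Hspa1b: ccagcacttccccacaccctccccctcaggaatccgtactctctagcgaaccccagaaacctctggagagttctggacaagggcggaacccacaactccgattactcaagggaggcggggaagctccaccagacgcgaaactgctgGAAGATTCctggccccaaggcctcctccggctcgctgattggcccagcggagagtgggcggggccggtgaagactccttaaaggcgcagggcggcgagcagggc
Hspb1: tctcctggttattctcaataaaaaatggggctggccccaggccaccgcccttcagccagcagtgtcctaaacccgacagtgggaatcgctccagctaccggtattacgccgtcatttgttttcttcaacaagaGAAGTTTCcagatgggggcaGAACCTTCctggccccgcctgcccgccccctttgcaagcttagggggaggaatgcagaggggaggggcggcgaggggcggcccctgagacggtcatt

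The Hspa1a and Hspa1b windows differed at 4 of 300 bases and carried the same pair of units at positions -104 to -97. Hspb1 carried 2 separate pairs, at -117 to -110 and at -97 to -90. The 30 bases around the element at Hspe1 and Hspd1 (chr1:55088053-55088082) lie before the start of Hspe1. On the opposite strand they lie inside the annotated span of Hspd1, before the second of its 2 annotated starts and after the first, whose window held no match. They are shown with those of Hsph1 (chr5:149636280-149636309, minus strand) and Bag3 (chr7:128523603-128523632, plus strand), whose matches lie after the start:
Hspe1, plus strand: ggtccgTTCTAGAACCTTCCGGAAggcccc
Hspd1, minus strand: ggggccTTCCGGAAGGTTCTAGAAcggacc
Hsph1: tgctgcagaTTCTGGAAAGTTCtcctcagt
Bag3: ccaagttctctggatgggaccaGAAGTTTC

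The pair was present in 8 of the 11 windows, from 7 of the 8 members, against 7.86% of all 32851 windows of that length. The 3-unit motif was present in 4 windows from Hspd1, Hspe1 and Hsph1, against 0.603% of all windows. Hspe1 and Hspd1 share 1 element, the 2 Hsph1 windows overlap and hold the same match, and Hspa1a and Hspa1b are near copies. The windows and members are therefore not independent in these counts. Neither motif was found in the Dnajb1 windows, which says only that these letters are not in those bases. The match is a description of the windows and was not related to binding here.

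**Figure D1:**
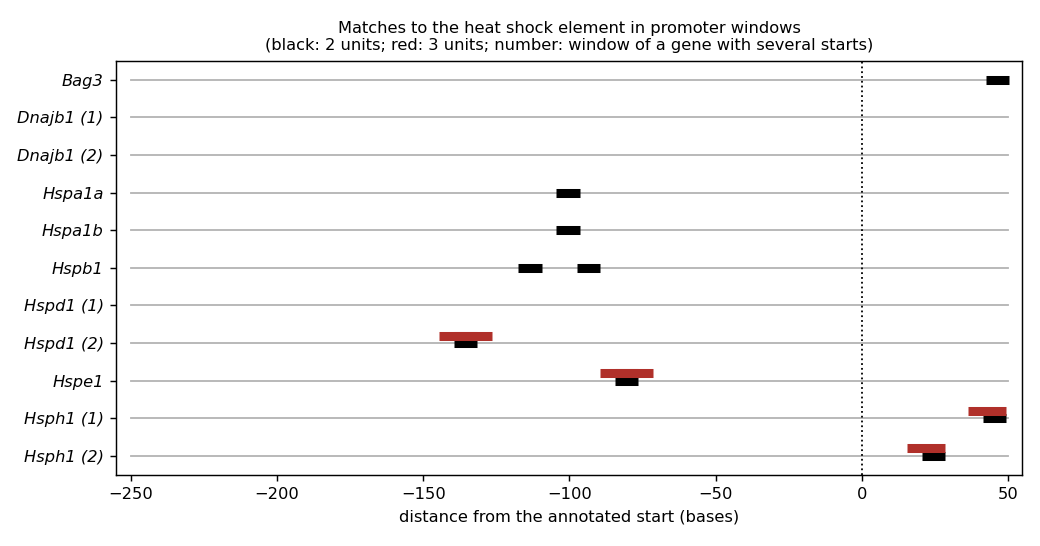
Positions of the 2 motifs in the RefSeq windows of 8 members, plotted as bases from the annotated start (x axis) for each window (y axis). Matches before the start are seen for Hspa1a, Hspa1b, Hspb1, Hspe1 and the second Hspd1 window, those of Hsph1 and Bag3 lie after it, and Dnajb1 has none.

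Among the members, the small heat shock protein Hspb1 and the co-chaperone Bag3 were lower in SG than in FG, and the mitochondrial chaperonin Hspd1 was higher. FG means were 2.75-fold the SG means for Hspb1 and 1.86-fold for Bag3. The stress-inducible HSP70 gene Hspa1b, Hsph1 and Dnajb1 had lower SG means but did not pass the test. Hspa1a, the near copy of Hspa1b, also had a lower SG mean but was not in the test. The constitutive HSP70 Hspa8 and the HSP90 gene Hsp90aa1 had nearly equal means. The test was limma on log2(FPKM + 1) over all 9867 genes, and a gene was called when its Benjamini-Hochberg adjusted p was below 0.05. Of the 9 members tested, 2 were called lower, where 15.6% of all genes tested were called lower, and 1 was called higher, where 3.73% of all genes were. The 4 values of one group lay wholly above those of the other for 3 members, and the same held for 26.1% of all genes tested. With 9 genes these counts are near the background and are not read as a property of the group. On the log2(FPKM + 1) scale the median of the differences, taken as SG less FG, was -0.49 over the 9 members and -0.135 over all genes tested.

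**Figure D2:**
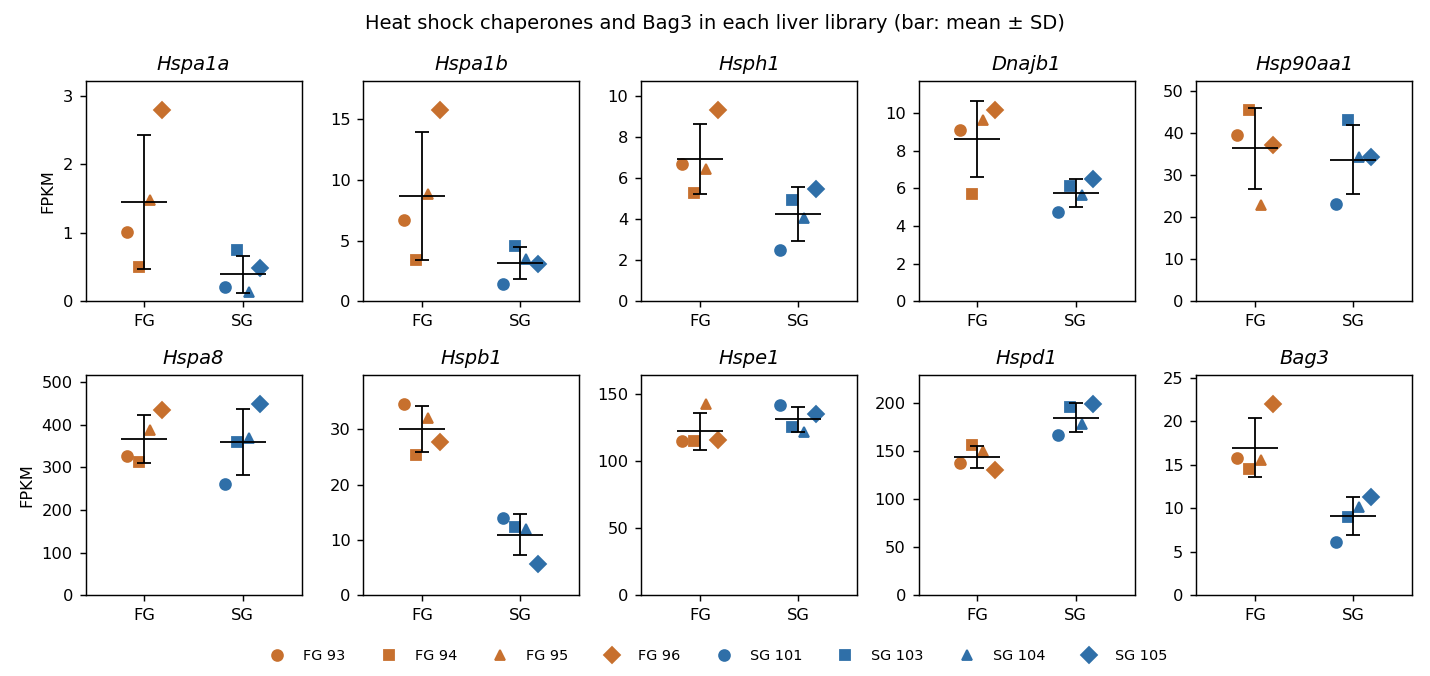
FPKM of each of the 10 members (y axes, one scale per gene) in the 4 FG and the 4 SG libraries (points), with group means and SD. The FG and SG points do not overlap for Hspb1, Bag3 and Hspd1, and overlap for the other members.

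Hspb1 encodes HSP27, a small heat shock protein that binds unfolded clients and actin (gene ID 15507, chromosome 5, 135887919 to 135889563). Its FPKM was 34.7, 25.4, 32.1 and 27.8 in FG 93, 94, 95 and 96, and 14.0, 12.2, 11.9 and 5.55 in SG 101, 103, 104 and 105. Every FG library was above every SG library, and SG 105 was the lowest of the 8. The SD was 4.15 FPKM in FG and 3.69 in SG (n = 4 each). The difference was -1.43 on the log2(FPKM + 1) scale (SE 0.240, 95% interval -1.98 to -0.89, limma adjusted p = 0.00701), and the exact two-sided permutation p was 0.0286, the smallest that 4 against 4 libraries can give. Hspb1 ranked 258 among all genes tested, counted from the smallest p, and was called lower in all 17 alternative settings that were run, with adjusted p from 0.00216 to 0.0268. Between 194 and 1215 fragments lay behind each value.

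Bag3 encodes an exchange factor of HSP70 that couples it to small heat shock proteins and to selective autophagy (gene ID 29810, chromosome 7, 128523583 to 128546981). Its FPKM was 15.7, 14.5, 15.6 and 22.0 in FG 93 to 96, and 6.15, 8.95, 10.1 and 11.3 in SG 101, 103, 104 and 105. The groups did not overlap, FG 96 stood above the other FG libraries, and SG 101 was the lowest. The means were 17.0 ± 3.42 and 9.12 ± 2.19 (SD, n = 4 each), a difference of -0.84 on the log2(FPKM + 1) scale (SE 0.184, 95% interval -1.25 to -0.42, limma adjusted p = 0.0170, exact permutation p = 0.0286). The call was kept when any single library was left out, with a highest adjusted p of 0.0441 without FG 93. It was lost under median-ratio scaling between libraries, where the difference was -0.68 and the limma adjusted p 0.0561, and under 3 other settings.

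Hsph1 encodes HSP110, a large relative of HSP70 that also acts as its exchange factor (gene ID 15505, chromosome 5, 149616843 to 149636498). Its FPKM was 6.68, 5.26, 6.46 and 9.34 in FG 93 to 96, and 2.49, 4.93, 4.07 and 5.49 in SG 101, 103, 104 and 105. The groups overlapped because SG 105 lay above FG 94. The means were 6.93 ± 1.72 and 4.25 ± 1.31 (SD, n = 4 each), with a difference of -0.61 on the log2(FPKM + 1) scale (SE 0.213, 95% interval -1.09 to -0.13, limma adjusted p = 0.0723, exact permutation p = 0.0571). Of the alternatives, the fit with library weights was the one that called it, at an adjusted p of 0.0352.

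Hspa1b and Hspa1a encode the stress-inducible HSP70 proteins and lie near each other in the class III region of the major histocompatibility complex on chromosome 17 (gene IDs 15511 and 193740, 34956429 to 34959238 and 34969359 to 34972156). Hspa1b FPKM was 6.68, 3.37, 8.84 and 15.8 in FG 93 to 96, and 1.42, 4.57, 3.49 and 3.11 in SG 101, 103, 104 and 105. FG 94 lay inside the SG range, and FG 96 was by itself far above the rest. The means were 8.66 ± 5.24 and 3.15 ± 1.31 (SD, n = 4 each), and the coefficient of variation was 60.5% in FG and 41.6% in SG. The FG mean was 2.75-fold the SG mean, as for Hspb1, yet the difference of -1.12 on the log2(FPKM + 1) scale (SE 0.390) had a limma adjusted p of 0.0727 and an exact permutation p of 0.0857. Without FG 94 Hspa1b was called, at an adjusted p of 0.0272.

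Hspa1a FPKM was 1.02, 0.504, 1.47 and 2.80 in FG 93 to 96, and 0.210, 0.743, 0.143 and 0.480 in SG 101, 103, 104 and 105. The order of the FG libraries was that of Hspa1b, with FG 96 highest and FG 94 lowest, and FG 94 again lay inside the SG range. The means were 1.45 ± 0.982 and 0.394 ± 0.275 (SD, n = 4 each), the difference was -0.75 on the log2(FPKM + 1) scale, and the exact permutation p was 0.0571. With no filter on low values, Hspa1a had a limma adjusted p of 0.177. Only 15 to 309 fragments lay behind its values.

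The split of fragments between these 2 genes depends on how reads that fit both were counted, and no source used here gives that. In GENCODE vM21, 1074 stretches of 150 bases are shared by the 2 transcripts, 38.1% of those of Hspa1a and 40.5% of those of Hspa1b, so each value is uncertain. Hspa1a held the smallest part of the pair's fragments in SG 104, 3.91% (15 of 384 fragments, exact 95% binomial interval 2.20% to 6.36%, counting error only). Added together, the 2 genes differed by -1.18 on the log2(FPKM + 1) scale (limma adjusted p = 0.0676).

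Hspa8 encodes HSC70, the HSP70 that cells make without stress (gene ID 15481, chromosome 9, 40801276 to 40805202). Its FPKM was 327, 314, 389 and 435 in FG 93 to 96, and 261, 359.8, 368 and 450.0 in SG 101, 103, 104 and 105. The groups overlapped throughout, and the lowest and the highest value of all 8 were both in SG. The means were 366 ± 56.3 and 359.8 ± 77.4 (SD, n = 4 each), and the difference of -0.04 on the log2(FPKM + 1) scale had a 95% interval of -0.42 to 0.34 (limma adjusted p = 0.889). Per kilobase, Hspa8 made up 95.9% to 98.8% of the summed FPKM of Hspa8, Hspa1a and Hspa1b in FG, and 98.5% to 99.4% in SG. The inducible pair thus contributed little HSP70 mRNA in any library, most in FG 96.

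Dnajb1 encodes HSP40, a J-domain partner of HSP70 (gene ID 81489, chromosome 8, 83608175 to 83612653). Its FPKM was 9.10, 5.69, 9.63 and 10.2 in FG 93 to 96, and 4.76, 6.12, 5.63 and 6.52 in SG 101, 103, 104 and 105. FG 94 lay among the SG libraries, and the other FG libraries were all above SG. The means were 8.65 ± 2.02 and 5.76 ± 0.760 (SD, n = 4 each), with a difference of -0.49 on the log2(FPKM + 1) scale (SE 0.169, 95% interval -0.87 to -0.11, limma adjusted p = 0.0683, exact permutation p = 0.0857). Without FG 94 it was called, at an adjusted p of 0.0144.

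Hsp90aa1 encodes the inducible cytosolic HSP90 (gene ID 15519, chromosome 12, 110691036 to 110696395). Its FPKM was 39.7, 45.6, 23.0 and 37.3 in FG 93 to 96, and 23.2, 43.1, 34.3 and 34.4 in SG 101, 103, 104 and 105. The groups overlapped, with a low library in each (FG 95 and SG 101), and FG 94, low for the inducible HSP70 genes, was the highest here. The means were 36.4 ± 9.57 and 33.7 ± 8.17 (SD, n = 4 each), and the difference of -0.10 on the log2(FPKM + 1) scale had a 95% interval of -0.62 to 0.42 (limma adjusted p = 0.792).

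Hspd1 and Hspe1 encode HSP60 and HSP10, the chaperonin of the mitochondrial matrix and its lid, and lie head to head on chromosome 1 (gene IDs 15510 and 15528, 55077833 to 55088243 and 55088148 to 55091317). Hspd1 FPKM was 138, 156, 150.4 and 131 in FG 93 to 96, and 167, 196, 178 and 199.5 in SG 101, 103, 104 and 105. All SG libraries were above all FG libraries, by a small margin between FG 94 and SG 101. The means were 144 ± 11.6 and 185 ± 15.4 (SD, n = 4 each), a difference of 0.36 on the log2(FPKM + 1) scale (SE 0.0936, 95% interval 0.15 to 0.57, limma adjusted p = 0.0298, exact permutation p = 0.0286). The call was kept in 9 of the 17 alternatives and lost in 6 of the 8 fits that left out a library, with the highest adjusted p, 0.0844, without FG 93.

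Hspe1 FPKM was 115, 115, 143 and 116 in FG 93 to 96, and 142, 126, 122 and 135 in SG 101, 103, 104 and 105. FG 95 stood apart from the other FG libraries and was the highest of all 8. The means were 122 ± 13.7 and 131 ± 9.25 (SD, n = 4 each), with a difference of 0.10 on the log2(FPKM + 1) scale (95% interval -0.12 to 0.33, limma adjusted p = 0.479). The ratio of Hspe1 to Hspd1 FPKM was 0.836, 0.739 and 0.886 in FG 93, 94 and 96 and highest of all 8 in FG 95, and it was 0.853, 0.642, 0.685 and 0.678 in SG 101, 103, 104 and 105 (exact permutation p = 0.0857, 0.114 adjusted over 8 ratios). In GENCODE vM21 the spans of the 2 genes overlap by 112 bases on opposite strands, and no source used here says if reads were counted by strand.

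**Figure D3:**
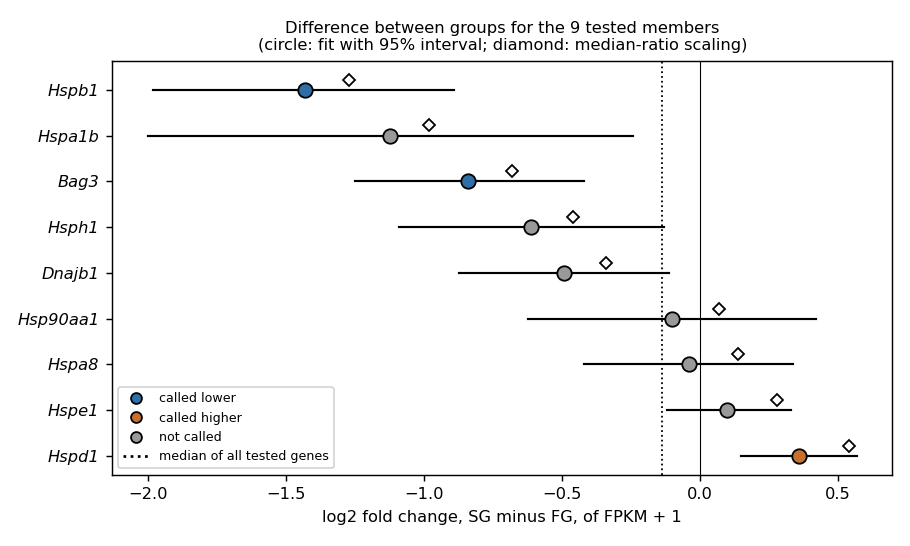
Difference between SG and FG for each member tested (x axis, log2(FPKM + 1) units, points with 95% intervals from limma), with the median of all genes tested as a reference line. The intervals of Hspb1 (-1.43) and Bag3 (-0.84) lie below 0, as do those of Hspa1b, Hsph1 and Dnajb1, which were not called after adjustment. That of Hspd1 (0.36) lies above 0, and those of Hsp90aa1, Hspa8 and Hspe1 include it.

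The scaling between libraries moved these values. Under median-ratio scaling the median of all genes tested shifted from -0.135 to 0.006, Hspb1 stayed lower (difference -1.27, limma adjusted p = 0.0111) and Hspd1 stayed higher (0.54, adjusted p = 0.0107). With that scaling 5.06% of all genes tested were called lower and 5.52% higher. The differences of Hspa8 and Hsp90aa1, which were not called under either scaling, changed sign to 0.14 and 0.07.

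The extreme values of several members fell in the same libraries, and the share of all genes tested with extremes there was not counted. FG 96 held the highest value of the 8 for 5 members, Hspa1a, Hspa1b, Hsph1, Dnajb1 and Bag3. SG 101 held the lowest value for 5, Hspa1b, Hsph1, Dnajb1, Hspa8 and Bag3. Hspb1, Hsp90aa1, Hspd1 and Hspe1 were in neither set. The inducible Hsp90aa1 had its highest value in FG 94 and its lowest in FG 95. For Hspb1 the highest value was in FG 93 and the lowest in SG 105, where the other inducible members were not at their lowest.

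**Figure D4:**
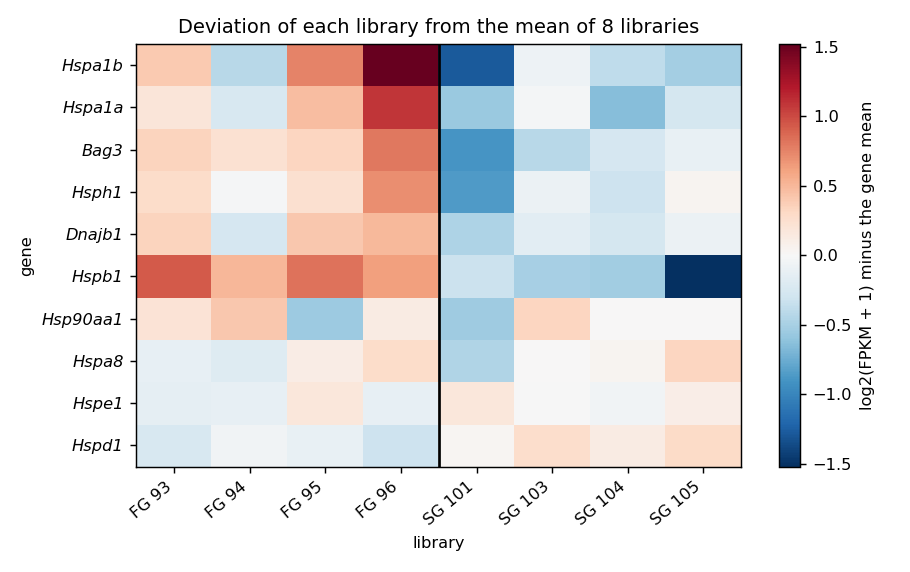
Level of each member (rows) in each library (columns) as log2(FPKM + 1) minus the member's mean over the 8 libraries (colour scale). FG 96 is high and SG 101 low across Hspa1b, Bag3, Hsph1 and Dnajb1, while Hspb1 follows another order within each group.

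Ratios to Hspa8 within a library do not depend on scaling between libraries. The ratio of Bag3 to Hspa8 FPKM was 0.0480, 0.0463, 0.0401 and 0.0507 in FG 93 to 96, and 0.0236, 0.0249, 0.0275 and 0.0250 in SG 101, 103, 104 and 105. The groups did not overlap and the SG ratios lay close together, a log2 difference of -0.87 (exact permutation p = 0.0286). The log2 differences of the Hspb1 and Hsph1 ratios to Hspa8 were -1.49 and -0.70, also without overlap. The ratios of Hspa1b and Dnajb1 to Hspa8 differed by -1.33 and -0.52 (exact permutation p = 0.0571, 0.0914 adjusted). None of the 8 ratios examined passed after Benjamini-Hochberg adjustment, and the smallest adjusted permutation p was 0.0762.

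Genes with a like pattern were sought by the root-mean-square distance between values of log2(FPKM + 1), each centred on its own mean over the 8 libraries, among all genes tested. Bag3 and Hsph1 lay 0.161 apart, and each was the second nearest gene to the other in the table, after Spc25 for Bag3 (0.159) and Zfas1 for Hsph1 (0.145). For Hspa1b the nearest gene was Dnajb9 (0.388), and the nearest member was Bag3 (0.443), with 2 genes nearer. Dnajb1 had Hsph1 as its nearest member (0.198), with 85 genes nearer, the first being Irgq (0.140). Hspb1 was nearest to Tnfrsf19 (0.163) and far from its nearest member, Bag3 (0.620), with 1632 genes nearer. Hspd1 and Hspe1 were each other's nearest member (0.193), but 603 genes were nearer to Hspd1 and 2163 nearer to Hspe1. The nearest genes of Hspd1 and Hspe1 were Agxt2 (0.077) and Tor1a (0.032). Hsp90aa1 and Hspa8 were nearest to Epm2aip1 (0.072) and Nifk (0.115). The genes nearest to the median of the members were Zfas1 (0.095), Irgq (0.106), Utp4 (0.109), Slc25a29 (0.111) and Zmynd19 (0.111).

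The other genes of the chaperone network were taken from 9 lists naming 126 genes, 125 of them in the table and 115 tested. Of these 115, 31 were called lower in SG (27.0%, against 15.6% of all genes tested) and 1 higher (0.870%, against 3.73%), with a median difference of -0.22 on the log2(FPKM + 1) scale. Under median-ratio scaling 7 were called lower and 3 higher, where 5.06% and 5.52% of all genes were, so the lower calls are then near the background. The counts of single lists given below stand beside these same shares, and a list of few genes is not read as differing from them.

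**Figure D5:**
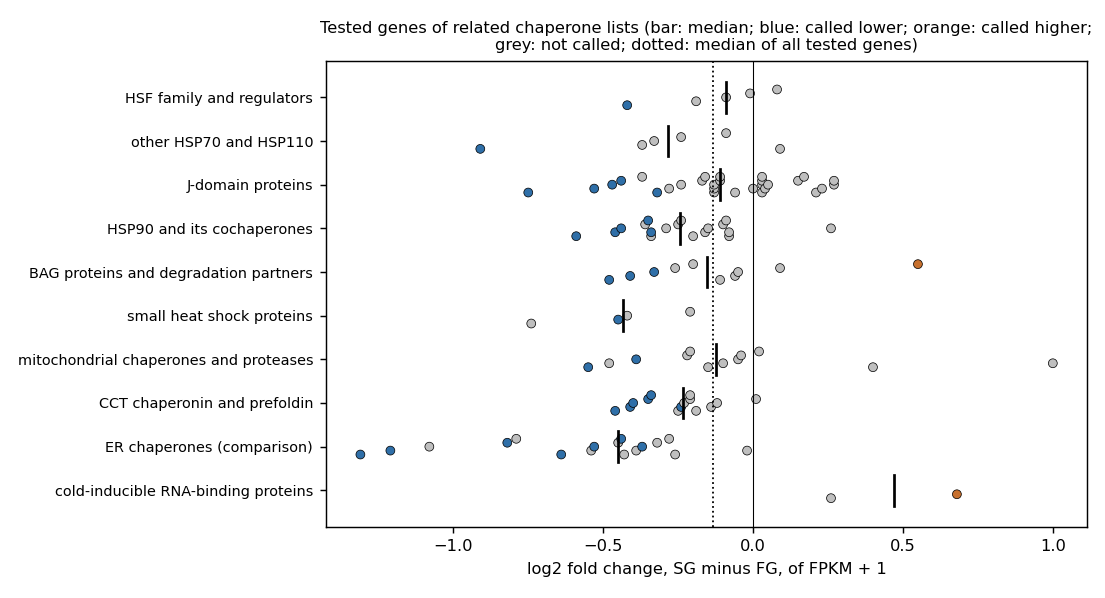
Differences between SG and FG (x axis, log2(FPKM + 1) units) of the tested genes of 9 chaperone lists and of the cold-inducible genes (y axis), one point per gene, with called genes coloured and list medians as bars. Most points of the chaperone lists lie below 0, as does the median of all genes tested, -0.135. Medians of the chaperone lists run from -0.09 for the heat shock factors with their regulators to -0.45 for the chaperones of the endoplasmic reticulum. Those of the J-domain (-0.11) and mitochondrial (-0.13) lists lie near that of all genes tested.

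Of 5 genes of heat shock factors and their regulators tested, 1 was called lower, and none was under median-ratio scaling. Hsf1, the factor of the classical response, was at 6.33 ± 1.21 FPKM in FG and 5.43 ± 0.965 in SG (limma adjusted p = 0.404). Hsf2 was at 1.66 ± 0.514 and 1.82 ± 0.591. Hsf4 fell from 5.41 ± 0.499 to 3.78 ± 0.331 FPKM, a difference of -0.42 on the log2(FPKM + 1) scale (adjusted p = 0.0184), and was at -0.28 under median-ratio scaling (adjusted p = 0.0894).

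Among 6 other HSP70 and HSP110 genes tested, 1 was called lower, Hspa13, a microsomal HSP70 relative. It fell from 6.65 ± 0.839 to 3.09 ± 0.668 FPKM (difference -0.91 on the log2(FPKM + 1) scale, limma adjusted p = 0.00397) and kept its call under median-ratio scaling (-0.77, adjusted p = 0.00869). Relatives of Hsph1 were not called, Hspa4 at 25.7 ± 1.44 and 21.7 ± 2.70 FPKM and Hspa4l with a difference of -0.37 on the log2(FPKM + 1) scale (adjusted p = 0.0938). Of 29 other J-domain genes tested, 5 were called lower, Dnajc9, Dnajc12, Dnajb2, Dnajc5 and Dnaja4, a share near the 15.6% of all genes tested, and none of them under median-ratio scaling. Dnaja1, a major cytosolic partner of HSP70, was at 42.9 ± 8.70 and 44.2 ± 11.3 FPKM (adjusted p = 0.935).

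Of 18 genes of HSP90 and its co-chaperones tested beside Hsp90aa1, 5 were called lower. Ahsa1, which stimulates the ATPase of HSP90, fell by 0.44 on the log2(FPKM + 1) scale (limma adjusted p = 0.00879). Stip1, the adaptor between HSP70 and HSP90, fell from 36.9 ± 2.41 to 24.2 ± 3.56 FPKM (adjusted p = 0.00920). The others were Tomm34, Fkbp4 and Cdc37. Under median-ratio scaling 1 of the list was called, Stip1 (adjusted p = 0.0357), and Ahsa1 was at -0.27 (adjusted p = 0.0561). The constitutive Hsp90ab1 was at 382 ± 43.6 and 343 ± 27.0 FPKM and was not called (adjusted p = 0.337), and the ratio of Hsp90aa1 to Hsp90ab1 had an exact permutation p of 0.8.

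Beside Bag3, 10 genes of BAG proteins and chaperone-linked degradation were tested, and 3 were called lower, none of them under median-ratio scaling. Bag1, another exchange factor of HSP70, fell from 54.0 ± 2.22 to 42.6 ± 1.87 FPKM (limma adjusted p = 0.0178), and St13, which stabilises HSP70 bound to ADP, fell from 50.9 ± 3.82 to 38.0 ± 1.80 (adjusted p = 0.0127). Bag2, an inhibitor of the ubiquitin ligase encoded by Stub1, was the third. Of 4 other genes listed as small heat shock genes and tested, Hspb11 was called lower, though not under median-ratio scaling. Bag2 and Hspb11 lay near the filter of 1 FPKM. Bag2 was at 1.16 to 2.01 FPKM in FG and 0.745 to 1.03 in SG, and Hspb11 at 1.28 to 1.90 and 0.702 to 1.22. Whether Hspb11 acts as a chaperone was not examined. Hspb6 and Cryab were not called (limma adjusted p = 0.244 and 0.656). Hspb8, the usual partner of Bag3, was at 74.5 ± 6.26 and 64.7 ± 12.6 FPKM and was not called (adjusted p = 0.279).

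Of 12 other mitochondrial chaperones and proteases tested, 2 were called lower and none higher, and under median-ratio scaling 1 was called lower and 1 higher. The protease Htra2 fell from 7.35 ± 0.128 to 4.74 ± 0.562 FPKM (limma adjusted p = 0.00753) and Lonp1 from 63.0 ± 5.54 to 47.8 ± 5.27 (adjusted p = 0.0314), but Lonp1 was called in 3 of the 8 fits that left out a library and not under median-ratio scaling (-0.22, adjusted p = 0.169). The mitochondrial HSP70 Hspa9 was at 206 ± 23.3 and 193 ± 11.8 (adjusted p = 0.548). Of 14 genes of the cytosolic chaperonin and prefoldin, 6 were called lower, among them Cct4, with a difference of -0.40 on the log2(FPKM + 1) scale (adjusted p = 0.00963), and Tcp1, and none was under median-ratio scaling. Of 17 chaperones of the endoplasmic reticulum, 7 were called lower, among them the resident HSP70 Hspa5, from 181 ± 15.6 to 117 ± 11.3 FPKM (adjusted p = 0.00541), and 4 were under median-ratio scaling.

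Cold-inducible, core clock and immediate early genes were also compared between the groups, and their part in the results was not tested. The cold-inducible RNA-binding gene Rbm3 rose from 5.64 ± 0.749 to 9.71 ± 1.90 FPKM in SG (difference 0.68 on the log2(FPKM + 1) scale, limma adjusted p = 0.0155) and kept its call with any single library left out, while Cirbp was at 7.35 ± 0.688 and 9.14 ± 2.14 (adjusted p = 0.264). Of 11 core clock genes tested, 2 were called lower, a share near the 15.6% of all genes tested. They were Nr1d1, from 20.7 ± 2.79 to 6.22 ± 3.46 FPKM (limma adjusted p = 0.00920), and Dbp, from 51.0 ± 7.44 to 17.6 ± 11.9 (adjusted p = 0.0204). The Dbp call was lost in 2 of the 8 fits that left out a library. Of 12 immediate early genes tested, 1 was called higher, Egr1, at 0.823 ± 0.270 FPKM in FG and 4.37 ± 3.28 in SG (adjusted p = 0.0255), which was no longer called in 4 of the 8 fits that left out a library. The hour of collection is not in the labels, so it cannot be told apart from the groups.

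Hepatocyte markers checked the labelled tissue. Their summed level was 56644 to 66523 FPKM in FG and 57977 to 73839 in SG, and of 8 tested 1 was called, Apoa1, higher, and it was not called in any of the 8 fits that left out a library. Of 7 sinusoidal endothelial markers tested 1 was called lower, Clec4g, where 15.6% of all genes tested were. The endothelial list's sum was 89.1 to 108.6 FPKM in FG and 68.1 to 80.9 in SG. Clec4g alone had means of 51.6 and 34.7 FPKM, while Stab2 and Stab1 differed by -0.01 and 0.03 on the log2(FPKM + 1) scale. Of 2 cholangiocyte markers tested Spp1 was called lower, with sums of 21.9 to 27.7 and 13.0 to 19.1 FPKM, and the 1 neutrophil marker tested, S100a9, was called lower, with sums of 2.35 to 3.78 and 0.740 to 1.45. S100a9 lay near the filter of 1 FPKM and passed it through its FG libraries. It was at 1.36 to 2.10 FPKM in FG and 0.438 to 1.03 in SG. The sums of the endothelial, cholangiocyte and neutrophil lists did not overlap between the groups, in the direction of Hspb1 and Bag3. Of all genes tested, taken singly, 26.1% did not overlap either, and no such share was counted for sums of lists. The part of these 3 lists in the differences of Hspb1 and Bag3 was not tested. Spp1 and S100a9 were called in 3 and 4 of the 8 fits that left out a library, and neither they nor Clec4g were under median-ratio scaling. No marker of the 7 Kupffer, 6 stellate or 2 pancreatic and adipocyte genes tested was called, and no lymphocyte marker passed the filter. The pancreatic and adipocyte sum reached 136.7 FPKM in FG 94 and was at most 14.2 in SG. No list had a marker at 0 in all 8 libraries.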

How the data were processed

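Liver mRNA of 4 FG and 4 SG libraries was sequenced as paired reads by Illumina NovaSeq, as the labels' protocols say. The submitters' processing notes name HISAT2, HTSeq, fastp and DESeq2 and the build GRCm38, with no versions. The deposited values are FPKM made by the authors, and 0 columns of per-sample values were unmatched.

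The main test was limma (version 3.58.1, R 4.3.3) on log2(FPKM + 1) with a mean-variance trend and no covariates, after a filter of at least 1 FPKM in at least 4 libraries, with Benjamini-Hochberg adjustment over 9867 genes. Differences are SG minus FG and understate changes of low genes. Exact permutation tests used all 70 assignments.

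FPKM steps gave whole fragments for 100.0% of 21358 genes (tolerance 0.02), and a median of 167 fragments lay behind values of 0.9 to 1.1 FPKM. These entered an added alternative, limma voom, which called 2 members lower and 1 higher.

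Members and the 20 lists (209 memberships, 208 in the table, 173 tested) were chosen with earlier results of these data known. Named from each list were up to 4 called genes of smallest p, or else the first gene, and 17 genes whatever their values; others named were chosen after their values were seen. Alternatives covered pseudocount, filter, scaling, trend, library weights and leaving out each library. One gene so chosen is not reported here.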

Additional observations from a re-analysis of the deposited data

Results flagged for a closer look

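In 10 of 132 groups of 4 libraries examined, the gap between the highest or lowest library and its nearest neighbour was a larger part of the group's range than Dixon's 95% critical value for 4 samples allows, which chance alone gives in about 1 group in 20. Among the members, Hspe1 was at 143 FPKM in FG 95 against 115 to 116 in the other FG libraries (gap 0.969), and Bag3 at 22.0 in FG 96 against 14.5 to 15.7 (gap 0.841). The ratio of Hspa1a to Hspa1b was 0.0408 in SG 104 against 0.148 to 0.163 in the other SG libraries (gap 0.880). Hsf4 was high in FG 95 (6.15 FPKM, gap 0.856) and in SG 104 (4.27, gap 0.861), on both sides of its difference. Cirbp was at 6.32 FPKM in FG 93 against 7.62 to 7.76 (gap 0.902), and the small heat shock gene Cryab at 19.4 in FG 93 against 1.56 to 2.30 (gap 0.958). Among cell type markers, Col3a1 was at 4.61 FPKM in SG 105 (gap 0.974), S100a9 at 0.438 in SG 101 (gap 0.841) and the pancreatic gene Cpa1 at 34.4 in FG 94 (gap 0.874).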

How the results depend on the processing

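The members called lower went from 2 to 1 under median-ratio, trimmed-mean and quantile scaling and with no filter on low values (1 each), was 3 with library weights, and ranged from 2 to 4 when a library was left out, with 4 without FG 94. The members called higher went from 1 to 0 with no filter and under quantile scaling, and ranged from 0 to 1 when a library was left out. Of the chaperone lists, 31 genes lower became 7 under median-ratio and 7 under trimmed-mean scaling, 18 with no filter, 18 under quantile scaling and 44 with library weights, and ranged from 14 (without FG 93) to 39 when a library was left out. Without FG 95, SG 103, SG 104 or SG 105 they were 19, 17, 16 and 15. The 1 list gene higher became 3 with library weights, 3 under each of median-ratio and trimmed-mean scaling, 2 under quantile scaling and 0 with no filter, and ranged from 0 to 2 when a library was left out. Of all genes tested, the main fit called 15.6% lower and 3.73% higher, and median-ratio scaling 5.06% and 5.52%. That share was not counted for the other settings, so the moves in these counts are not read as a property of the members or lists. Signs turned in differences that were not called. Under median-ratio and trimmed-mean scaling Hsp90aa1 was 0.07, Hspa8 0.14, Hsp90ab1 0.03 and Hspa9 0.09, and under quantile scaling Hsp90aa1 was 0.02. With 1 library left out, Hsp90aa1 ranged from -0.30 to 0.07 (above 0 without FG 94 or SG 101), Hspa8 from -0.16 to 0.11 (above 0 without FG 96 or SG 101), Hsf2 from -0.05 to 0.22 (below 0 without FG 95 or SG 103) and Dnaja1 from -0.08 to 0.19 (below 0 without FG 93, FG 95, SG 103 or SG 104). Cryab ranged from -0.73 to 0.27 (above 0 without FG 93) and Cpa1 from -1.70 to 0.02 (above 0 without FG 94). The log2 ratio of Hsp90aa1 to Hsp90ab1 was -0.20 without FG 95 and -0.10 without SG 103. The cause was not tested. Of 1022 recomputed values of single genes and ratios, those above included, 819 kept direction and side of the threshold. No paired analysis was possible because the groups share no replicate numbers. Hspa1a is the member that depth limits, with 15 to 309 fragments a library.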
